A study of Homo sapiens with 4 samples.

Results

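A set of 10 genes, textbook direct targets of Wnt and beta-catenin signaling, was followed in nascent RNA of HCT116 cells: AXIN2, LGR5, ASCL2, RNF43, ZNRF3, NKD1, TCF7, LEF1, SP5 and NOTUM. They were chosen by name and not by a measured value, though with earlier results of these data known. They make up 10 of the 19901 genes counted. All 4 libraries came from HCT116, a colon cancer cell line, of the genotype KAP1_dTAG_CloneD5, which is a single clone whose endogenous KAP1 carries a degron tag. The cells received either DMSO for 8 h (2 libraries) or the degrader dTAG for 8 h (2 libraries), with no serum stimulus in either group. Since both groups share the clone and no untagged cells given dTAG are among these libraries, loss of KAP1 and any other action of the compound cannot be told apart. RNA made during a 10 min pulse of 500 μM 4-thiouridine was isolated (TT-Seq), so the counts follow RNA being synthesized rather than RNA that had accumulated. The question asked of these genes was whether their synthesis differs when KAP1, a chromatin-bound regulator of transcription encoded by TRIM28, is depleted. The paper reports the protein as reduced at this time and not as absent, and these libraries do not measure it.

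In canonical Wnt signaling, a Wnt ligand binds a Frizzled receptor and an LRP co-receptor, and Dishevelled then inactivates the destruction complex that marks beta-catenin for degradation. Stabilized beta-catenin enters the nucleus and activates genes bound by TCF/LEF factors. Several of the genes so activated encode inhibitors of the pathway. AXIN2 is a scaffold of the destruction complex, RNF43 and ZNRF3 are ubiquitin ligases that remove Frizzled from the cell surface, NKD1 binds Dishevelled, and NOTUM is a secreted enzyme that inactivates Wnt ligands. LGR5, a receptor of R-spondins, and ASCL2, a transcription factor, mark intestinal stem cells. TCF7 and LEF1 are TCF/LEF factors themselves, and SP5 is a zinc finger transcription factor. HCT116 cells carry an activating mutation of the beta-catenin gene CTNNB1, so the pathway is known to be active in them without added ligand.

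To show what a TCF/LEF motif looks like at these genes, the promoter stretches with matches are given for the members that had any, and for DKK1, the secreted inhibitor with the highest level of nascent RNA. Windows came from RefSeq (GRCh38.p14) and run from 250 bases before to 50 bases after a start. The motif was searched on both strands in these forms, none of which overlaps another in the stretches shown: CTTTGAT as the first form, then CTTTGTT as the second, CTTTGAA as the third and CTTTGTA as the fourth. Capitals mark the matches (those on the other strand read as the reverse complement).
SP5: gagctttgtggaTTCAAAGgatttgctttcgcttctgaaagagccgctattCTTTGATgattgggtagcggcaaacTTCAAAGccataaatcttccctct
TCF7: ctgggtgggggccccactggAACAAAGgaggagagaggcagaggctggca
DKK1: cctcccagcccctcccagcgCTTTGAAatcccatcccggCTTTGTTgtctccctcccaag
The SP5 stretch, chr2:170715177-170715276 on the plus strand, held 3 matches, at 148, 109 and 84 bases before the start. The TCF7 stretch, chr5:134123548-134123597 on the plus strand, held 1 match, 50 bases before a RefSeq start that lies inside the counted gene interval. The DKK1 stretch, chr10:52314166-52314225 on the plus strand, held 2 matches, at 95 and 76 bases before the start. Of all 35116 windows in the RefSeq table, 13.75% held at least 1 match. Of the 86 windows of other Wnt pathway genes (listed below), 6 held a match, from 6 of 66 genes. DKK1 was thus shown for its matches as well as for its level, and most of these genes had none. The table held windows for 4 of the 10 members, namely RNF43, TCF7, LEF1 and SP5. A match is a string of letters and not a shown binding site.

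Gene counts per library lay between 93105627 and 102314741, and ERCC spike-in RNAs amounted to 0.0103 to 0.0265% of them. A gene was tested if it had at least 50 counts in all 4 libraries, which 12612 genes did, and was called if its adjusted p was under 0.05. With dTAG, 434 genes were called higher (3.44%) and 461 lower (3.66%), or 7.1% in all. Upper-quartile factors changed this split to 255 against 869, and an ERCC factor as covariate changed it to 801 against 530. TRIM28 itself had 61.7 and 69.8 CPM (counts scaled to a common library size) with DMSO and 53.5 and 47.9 with dTAG, a log2 fold change of -0.37 ± 0.092 (SE; edgeR adjusted p = 0.0189). The degrader acts on the protein, so this RNA does not check the labels, and it was called in 9 of 16 alternatives (adjusted p 4.4e-08 to 0.88). Of 9 colon epithelium markers, 7 were tested and 0 were called by edgeR (3 at an unadjusted p under 0.05, beside 26.6% of all tested genes). The summed level of the 9 was 1200 and 1240 CPM with DMSO and 1218 and 1115 CPM with dTAG. The defining markers KRT20 (2 to 7 counts) and VIL1 (1 to 15 counts) were close to 0. The 10 markers of blood, endothelial, stromal, liver and neuroendocrine cells summed to 7.85 and 7.98 CPM with DMSO and to 7.04 and 6.90 CPM with dTAG, with PTPRC at 0 to 1 count and NEUROD1 at 0 in all 4 libraries (0 called by edgeR of 2 tested, 0 at an unadjusted p under 0.05).

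Levels are compared between genes as CPM per kilobase of the counted gene interval, introns included. With DMSO, AXIN2 was highest at 2.76 ± 0.372 (SD, n = 2), followed by RNF43 at 2.04 ± 0.0514 and ZNRF3 at 1.93 ± 0.0198. TCF7 stood at 0.996 ± 0.0854, NKD1 at 0.397 ± 0.0040, NOTUM at 0.249 ± 0.0521 and SP5 at 0.148 ± 0.0112. The 3 genes at the bottom were ASCL2 at 0.0143, LGR5 at 0.00096 and LEF1 at 0.00029 CPM per kb, each from fewer than 15 counts in either DMSO library. The order thus spanned from AXIN2, at the 79.8th percentile of tested genes, to genes with hardly any reads. Every pair of neighbors in this order had DMSO libraries that did not overlap. With dTAG the order changed and was less separated. ZNRF3 (2.04 and 1.99 CPM per kb) then had the highest mean, overlapping AXIN2 (2.04 and 1.90), and lay above RNF43 (1.77 and 1.82) without overlap. SP5 (0.0549 and 0.167) overlapped NOTUM (0.173 and 0.148), and ASCL2 (0.0081 and 0) overlapped LGR5 (0.00082 and 0.0016).

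**Figure D1:**
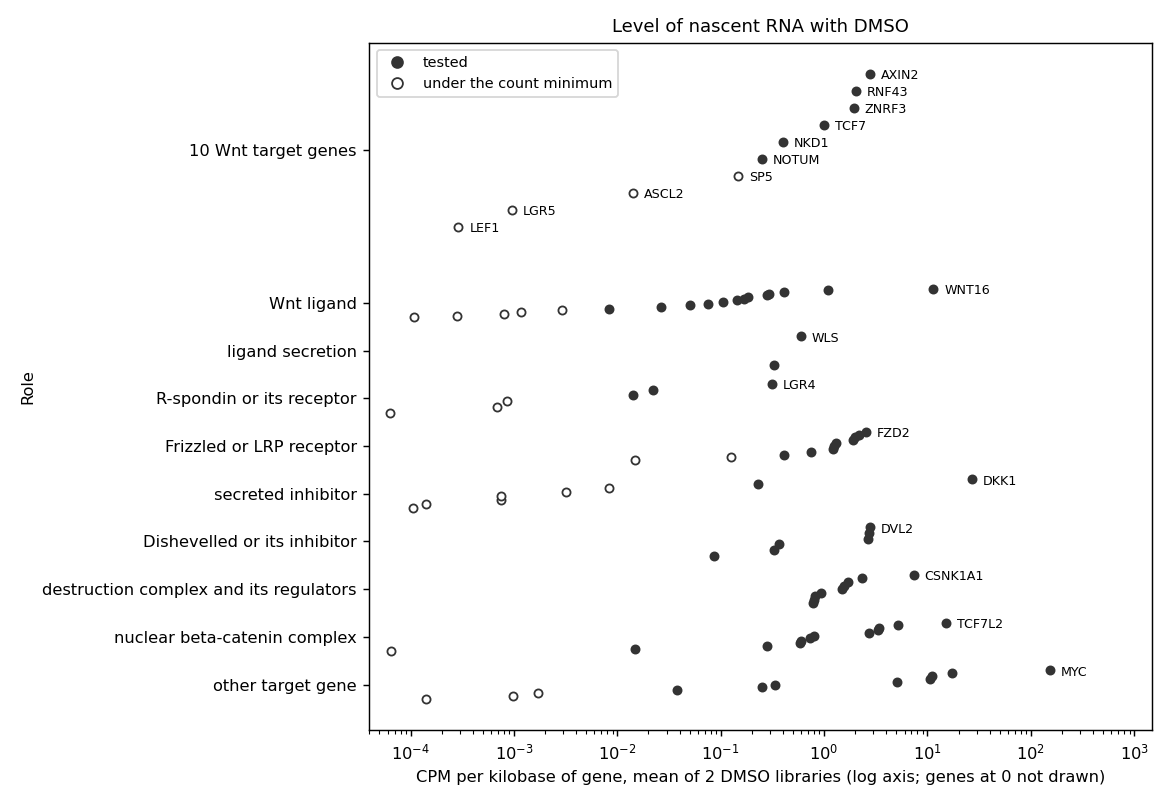
Level of nascent RNA with DMSO, as the mean CPM per kilobase of 2 libraries on a log axis, for the 10 Wnt target genes (top) and 88 other Wnt pathway genes by role. Filled points passed the count minimum and open points did not; genes at 0 are not drawn. The targets reach from LEF1 at 0.00029 to AXIN2 at 2.76, and MYC at 154 is the highest gene drawn.

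Of the 10 genes, 6 passed the count minimum (AXIN2, RNF43, ZNRF3, NKD1, NOTUM and TCF7). AXIN2 fell with dTAG, and the other 5 were not called, so that 1 of 6 was called lower, against 3.66% of all tested genes, and 0 of 6 were called higher. Among the 6, 3 (AXIN2, NOTUM and RNF43) had both dTAG libraries below both DMSO libraries, and 1 (ZNRF3) had both above. Over all tested genes these patterns were seen in 30.7% and 28.1%. The same 3 genes were those with an unadjusted p under 0.05, which 26.6% of all tested genes had (14.3% in the lower direction). The median log2 fold change of the 6 was -0.13, while the 12612 genes together had a median of -0.015. In bulk RNA, fewer cells that make a transcript and less of it per cell cannot be told apart.

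**Figure D2:**
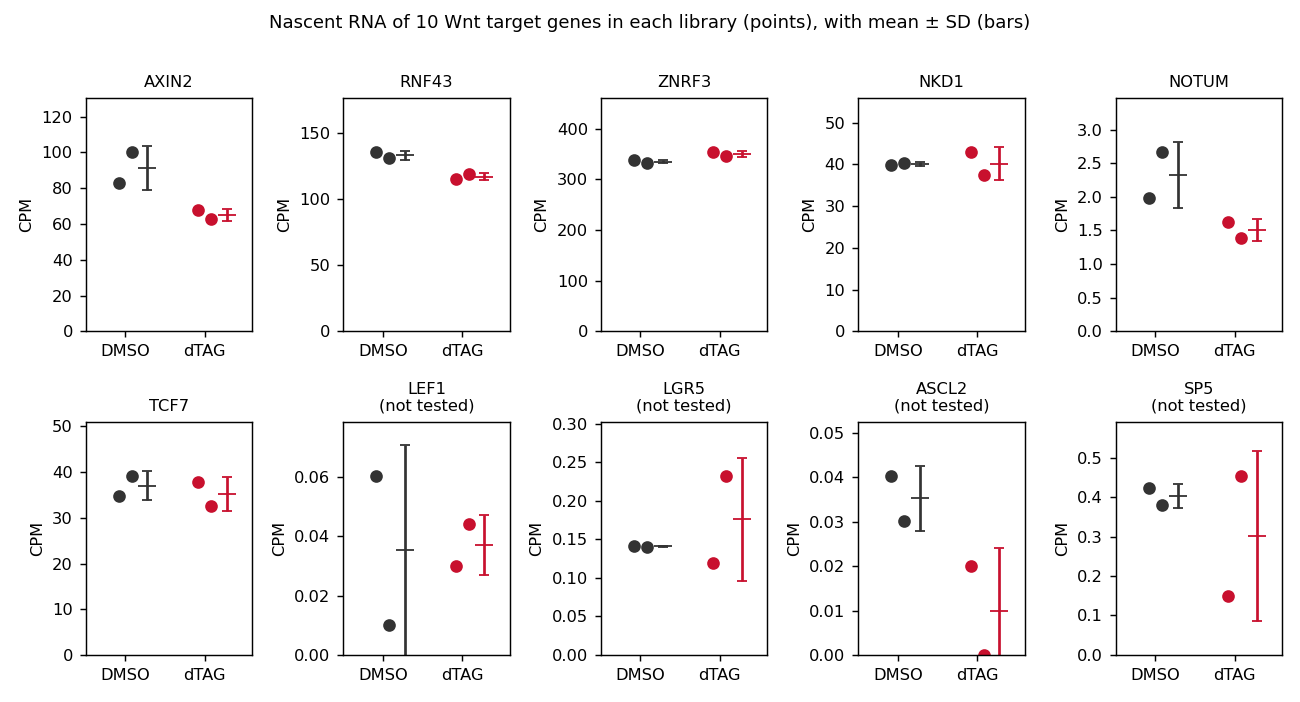
CPM of each of the 10 Wnt target genes in each library (points: 2 DMSO in black, 2 dTAG in red), with mean ± SD as bars, each panel on its own linear axis from 0. AXIN2, RNF43, NOTUM and, at 0 to 4 counts, ASCL2 show both dTAG points below both DMSO points; bars that reach below 0 are cut at the axis.

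AXIN2 (ENSG00000168646.12, hg38 chr17:65528563-65561647, minus strand), the scaffold protein widely read as a reporter of pathway output, had 82.7 and 100.2 CPM with DMSO and 67.6 and 62.7 CPM with dTAG. Both dTAG libraries lay below both DMSO libraries, and the DMSO libraries differed more from each other than the dTAG libraries did. The means were 91.5 ± 12.3 and 65.2 ± 3.46 CPM (SD, n = 2). This is a log2 fold change of -0.49 ± 0.094 (SE, 95% interval -0.68 to -0.29), or 28.7% lower, with edgeR adjusted p = 0.00333. Counts and ranges over alternatives, here and elsewhere, include a replicate block with the numbers crossed between groups, which was chosen after seeing the data. The call was kept in 12 of 15 alternatives. Among them was the ERCC factor as covariate, where the call had a smaller change (log2 fold change -0.24, adjusted p = 0.0153). It was lost without dTAG replicate 1 (log2 fold change -0.54, adjusted p = 0.072), without dTAG replicate 2 (-0.44, adjusted p = 0.39) and with ERCC totals as library sizes (0.18, adjusted p = 0.77), where the median of all genes stood at 0.63. Over the alternatives the adjusted p ranged from 2.0e-16 to 0.77.

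Most of the AXIN2 interval is shared with another gene. A read-through gene on the same strand (ENSG00000266076, chr17:65538102-65641033) covers 23.5 kb, or 71.2%, of AXIN2 and leaves 9.54 kb to AXIN2 alone. This gene was listed with 752, 685, 635 and 649 counts in DMSO 1, DMSO 2, dTAG 1 and dTAG 2, which is 6.86 to 11.5% of the AXIN2 counts. Its log2 fold change was -0.096 ± 0.15 (SE; edgeR adjusted p = 0.71). How reads in the shared stretch were assigned is not given in the sources used here. Per kilobase of its unshared part, AXIN2 would stand at 9.59 CPM with DMSO, so that its place at the top of the 10 genes does not rest on the choice of length, while the size of its level does.

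NOTUM (ENSG00000185269.11, chr17:81952507-81961840, minus strand), the secreted Wnt deacylase, had 1.98 and 2.67 CPM with DMSO and 1.62 and 1.39 CPM with dTAG, from 125 to 266 counts per library. The groups did not overlap. Its log2 fold change of -0.63 ± 0.23 (SE, 95% interval -1.11 to -0.14) was the largest in size of the 6, and its SE was also the largest. It was not called (edgeR adjusted p = 0.0966). It passed the threshold in 3 of 16 alternatives, with adjusted p between 0.0018 and 0.94. Dropping DMSO replicate 1 gave a log2 fold change of -0.83, and dropping DMSO replicate 2 gave -0.40. With an ERCC factor as covariate the log2 fold change was -0.22, and with the GC and length trend removed it was -0.29. The gene's interval has a GC content of 64.2%, at the 98.1st percentile of tested genes, and 39.2% of it lies under a GENCODE noncoding gene on the opposite strand.

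RNF43 (ENSG00000108375.12, chr17:58352500-58417595, minus strand) had 135.3 and 130.6 CPM with DMSO and 115.0 and 118.5 CPM with dTAG. The groups did not overlap, and within each group the libraries were close, with means of 132.9 ± 3.35 and 116.7 ± 2.47 CPM (SD, n = 2). The log2 fold change was -0.19 ± 0.083 (SE, 95% interval -0.36 to -0.015), or 12.2% lower, and did not pass after adjustment (edgeR adjusted p = 0.15). This gene stood near the threshold. It was called lower in 7 of 15 alternatives, among them upper-quartile factors (-0.26, adjusted p = 0.0416), the ERCC factor (-0.24, adjusted p = 0.0050) and the GC and length correction (-0.25, adjusted p = 9.8e-04), and not in the other 8, with adjusted p up to 0.95. In GENCODE 44 an antisense gene, TSPOAP1-AS1, lies over 97.2% of RNF43, and a protein-coding gene on the same strand, ENSG00000285897, over 100%. Use of strand in the counting is not given in the sources used here, and strand would not separate the reads of the latter, so reads of these genes and of RNF43 cannot be told apart.

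ZNRF3 (ENSG00000183579.15, chr22:28883592-29057487, plus strand), the paralog of RNF43 with the same role at the cell surface, had 337.3 and 332.4 CPM with DMSO and 354.0 and 345.9 CPM with dTAG. Both dTAG libraries lay slightly above both DMSO libraries. The log2 fold change was 0.063 ± 0.092 (SE, edgeR adjusted p = 0.68), with a 95% interval of -0.13 to 0.26. Its sign turned with upper-quartile factors (-0.0099) and with the length trend removed (-0.026). Whether the 2 ligases differ in their change was not tested.

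NKD1 (ENSG00000140807.6, chr16:50548330-50649249, plus strand), the Dishevelled-binding inhibitor, had 39.8 and 40.4 CPM with DMSO and 43.0 and 37.5 CPM with dTAG. Of the dTAG libraries, 1 was above and the other below the DMSO libraries, which lay close together. The log2 fold change was 0.0051 ± 0.096 (SE, 95% interval -0.20 to 0.21, edgeR adjusted p = 0.98).

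TCF7 (ENSG00000081059.19, chr5:134114711-134151865, plus strand), which encodes the factor TCF1, had 34.8 and 39.3 CPM with DMSO and 37.9 and 32.7 CPM with dTAG. The libraries of the groups interleaved. The log2 fold change was -0.068 ± 0.10 (SE, 95% interval -0.28 to 0.15, edgeR adjusted p = 0.70), and its sign turned with the ERCC factor (0.13) and with the GC and length trend removed (0.082). Its last 7.89% overlaps SKP1 on the opposite strand, which had a log2 fold change of 0.042.

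The remaining 4 members were under the count minimum and were not tested. LGR5 (ENSG00000139292.12, chr12:71439770-71586310, plus strand) had 14 and 14 counts with DMSO and 12 and 21 with dTAG. LEF1 (ENSG00000138795.9, chr4:108047545-108168956, minus strand) had 6 and 1 counts with DMSO and 3 and 4 with dTAG. Both genes are long (146542 and 121413 bases), so these counts amount to hardly any nascent RNA of either gene in this clone.

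ASCL2 (ENSG00000183734.4, chr11:2268495-2270952, minus strand) had 4 and 3 counts with DMSO and 2 and 0 with dTAG, and a count of 0 allows up to 3 counts, or 0.0333 CPM, in that library. SP5 (ENSG00000204335.3, chr2:170715351-170718078, plus strand), whose promoter held the 3 motif matches shown above, had 42 and 38 counts with DMSO and 15 and 41 with dTAG. For SP5 the lower value was thus that of 1 dTAG library, and the other was close to the DMSO libraries. The opposite-strand gene ERICH2-DT of GENCODE 44 covers 99.96% of SP5. Use of strand in the counting is not given in the sources used here, so whether reads of the pair were separated is not known. Without the count minimum 0 of these 4 genes were called, at an unadjusted p under 0.05 also 0, and their edgeR adjusted p lay between 0.65 and 0.99. Differences in these genes were not detectable at this depth.

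The change of a gene moved with its GC content and length over the whole table. The median log2 fold change was 0.13 in the 20% of tested genes lowest in GC content and -0.22 in the 20% highest, and -0.19 in the shortest 20% and 0.090 in the longest. Of the 6 tested members, NOTUM is the shortest (9335 bases) and richest in GC, and ZNRF3, with the highest fold change, is the longest (173897 bases) with a GC content of 45.3%. AXIN2, with a GC content of 51.3%, had a log2 fold change of -0.38 (adjusted p = 2.7e-04) once both trends were removed. RNF43, at 43.1% GC, moved to -0.25 under that correction, and NOTUM to -0.29. The part of GC content and length in these changes was not tested beyond this correction.

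**Figure D3:**
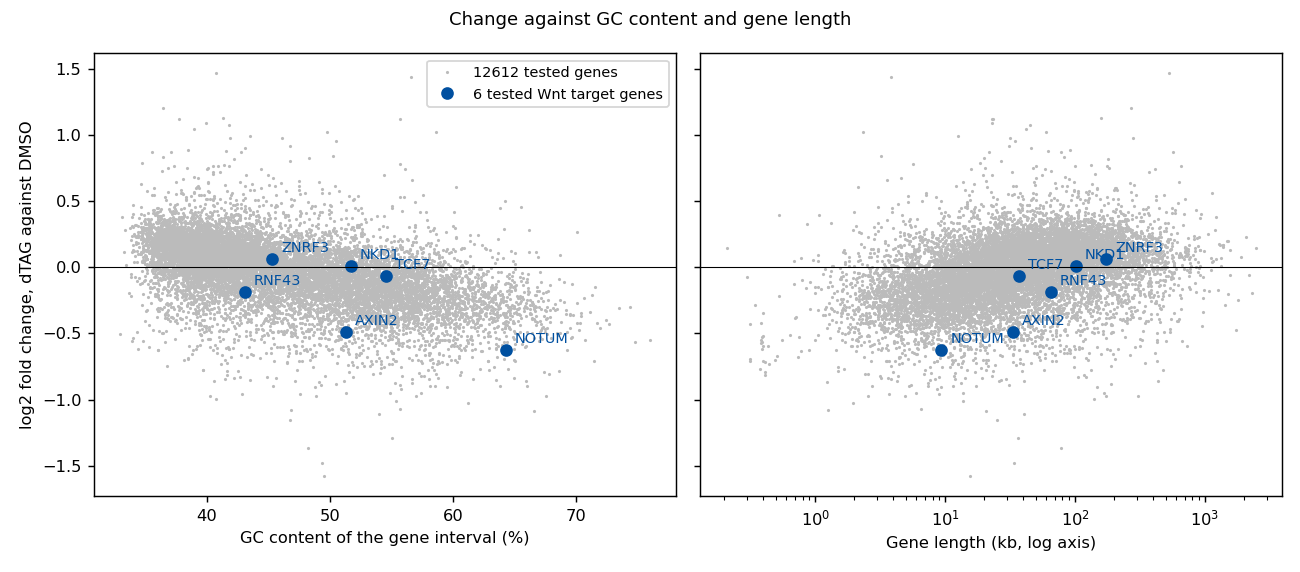
log2 fold change of dTAG against DMSO for 12612 tested genes (gray) against GC content of the gene interval (left, percent) and gene length (right, kb, log axis), with the 6 tested Wnt target genes in blue. Changes are lower at high GC content and in short genes; NOTUM, at 64.2% GC, lies at that end, and AXIN2 is drawn at 51.3% GC with a change of -0.49.

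**Figure D4:**
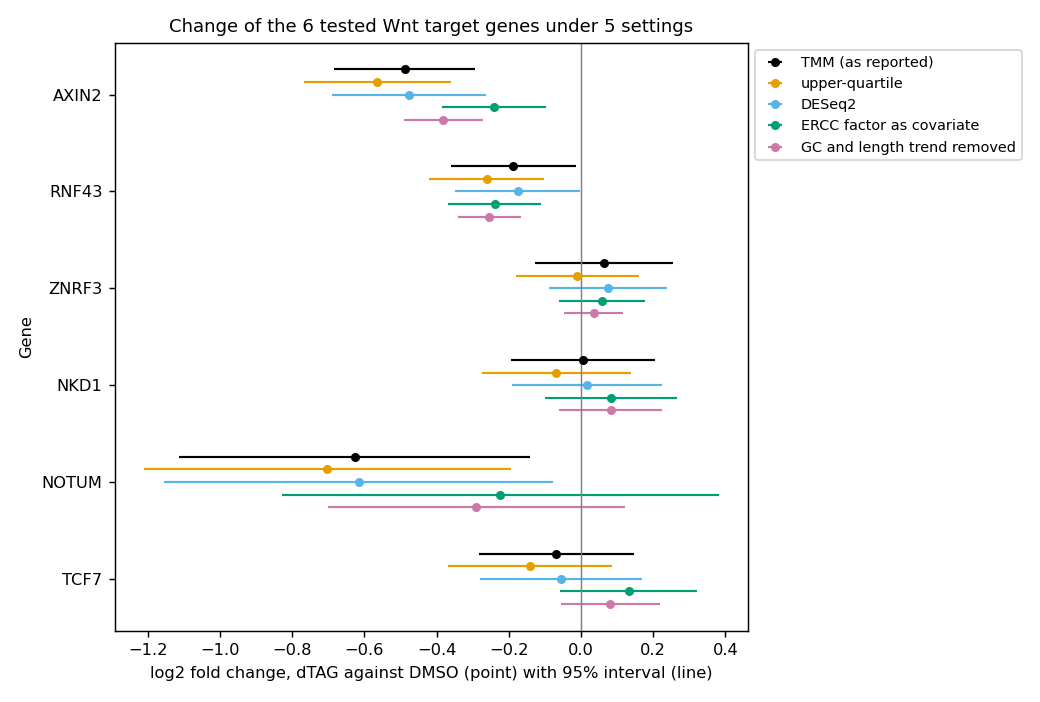
log2 fold change (points) with 95% interval (lines) of the 6 tested Wnt target genes under TMM scaling and 4 alternatives. AXIN2 and RNF43 lie below 0 with intervals that exclude it in all 5; NOTUM's interval crosses 0 with the ERCC factor and the GC and length correction; ZNRF3, NKD1 and TCF7 cross 0 in all 5.

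The other genes of the pathway were taken from a list of 88, of which 63 were tested. Of these, 5 were called (4 lower and 1 higher), or 7.94% against 7.1% of all tested genes. The list had a median log2 fold change of -0.11, beside -0.015 for all tested genes, and 40 of the 63 were negative (63.5%, beside 52.4% of all). Both dTAG libraries lay below both DMSO libraries for 29 genes (46.0%, beside 30.7%), and above for 9 (14.3%, beside 28.1%). With the GC and length trend removed the median was -0.061, and 21 of the 63 were called, beside 18.1% of all genes. Without dTAG replicate 2, 0 of the 63 were called by edgeR (7 at an unadjusted p under 0.05), beside 0.547% of all genes, and without DMSO replicate 1, 29 were, beside 43.5%.

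**Figure D5:**
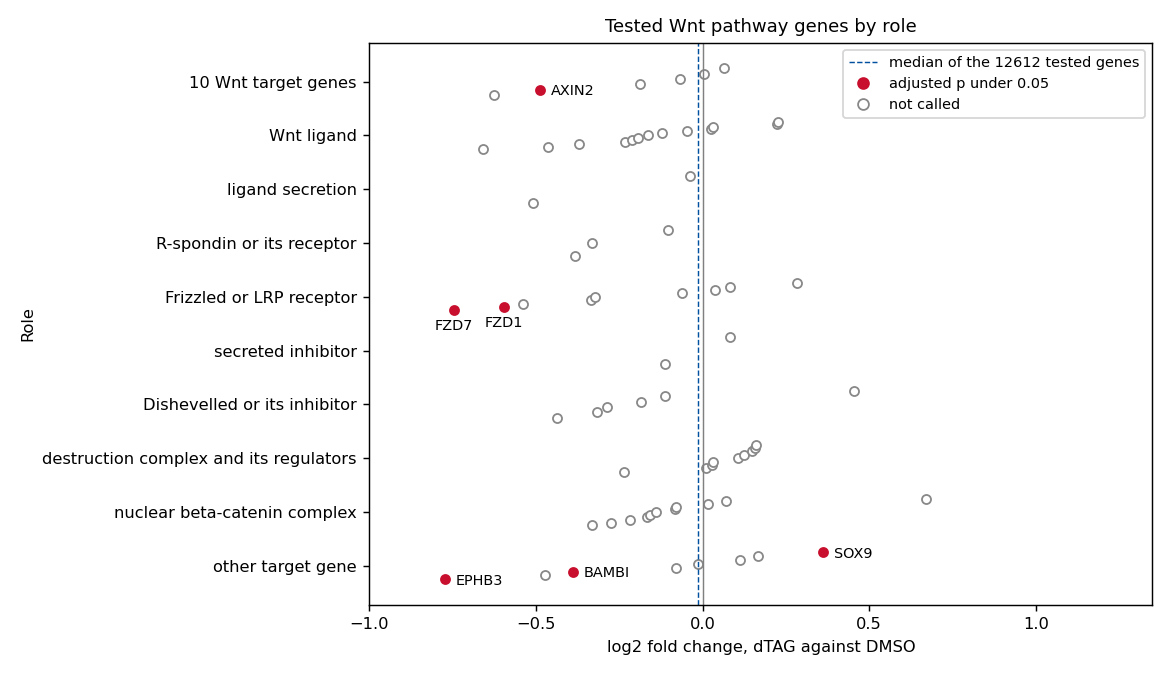
log2 fold change of dTAG against DMSO for the 6 tested Wnt target genes and 63 tested pathway genes by role; red points were called at an adjusted p under 0.05. FZD7, FZD1, BAMBI, EPHB3 and AXIN2 lie between -0.77 and -0.39, and SOX9 lies at 0.36. Of 9 destruction complex genes, 8 lie above 0 with none called, beside 6010 of all 12612 tested genes above 0.

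Among ligands, 13 of 19 Wnt genes were tested and 0 were called, with a median log2 fold change of -0.16. At an unadjusted p under 0.05 there were 2, beside 26.6% of all tested genes, a share that applies to each role below. WNT16, the ligand gene with the highest level (11.4 CPM per kb with DMSO), had 175.6 and 183.0 CPM with DMSO and 151.4 and 153.8 with dTAG (log2 fold change -0.23, edgeR adjusted p = 0.0913), and was called lower in 6 of 16 alternatives. WLS, the carrier that brings Wnt proteins to the cell surface, had a log2 fold change of -0.037. Of the R-spondins and their receptors 3 of 6 were tested, 0 called and 1 at an unadjusted p under 0.05. LGR4, the R-spondin receptor with the highest level in these cells, had 35.5 and 31.3 CPM with DMSO and 27.0 and 26.1 with dTAG (log2 fold change -0.33, edgeR adjusted p = 0.0539), just outside the threshold. It was called lower in 11 of 16 alternatives, with -0.45 under the ERCC factor (adjusted p = 3.4e-04) and -0.47 with the GC and length trend removed (adjusted p = 3.6e-04), and its adjusted p ran from 2.0e-04 to 0.90. Its paralog LGR5 was among the members with hardly any reads.

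Among 9 tested Frizzled and LRP genes 2 were called, both lower, beside 3.66% of all tested genes called lower. FZD7 fell from 8.02 and 8.89 CPM with DMSO to 5.99 and 4.07 CPM with dTAG, a log2 fold change of -0.75 ± 0.18 (SE; edgeR adjusted p = 0.0149). FZD1 fell from 9.40 and 8.74 CPM to 6.25 and 5.74 CPM, a log2 fold change of -0.60 ± 0.15 (SE; edgeR adjusted p = 0.0200). In both genes the groups did not overlap, but they were named for their calls, so this adds no separate support. Both dTAG libraries lay lower in 30.7% of all tested genes. FZD2, the Frizzled gene with the highest level, had a log2 fold change of -0.54 (edgeR adjusted p = 0.0714), and of -0.19 with the GC and length trend removed. Of the 9 tested Frizzled and LRP genes 6 were negative and 3 positive. FZD6, singled out after its values were seen, had the highest fold change of these, with 69.3 and 67.5 CPM with DMSO and 77.5 and 88.9 with dTAG (log2 fold change 0.28, edgeR adjusted p = 0.0545). Both calls were lost without dTAG replicate 2 (log2 fold change -0.50, adjusted p = 0.79 for FZD7, and -0.54, adjusted p = 0.71 for FZD1). FZD7 also lost its call with the ERCC factor (-0.48, adjusted p = 0.0812), and FZD1 without dTAG replicate 1 (-0.66, adjusted p = 0.19) and with the length trend removed (-0.43, adjusted p = 0.0534). Over all alternatives adjusted p ran from 2.7e-06 to 0.82 for FZD7 and from 1.9e-04 to 0.96 for FZD1. Both lower ends came from the replicate block with crossed numbers, which was chosen after seeing the data.

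Inside the cell, 6 of 6 genes of Dishevelled and its inhibitors were tested and 0 were called, with a median log2 fold change of -0.24. Of the 6, 3 had an unadjusted p under 0.05, beside 26.6% of all tested genes. DVL2, the most abundant per kilobase, stood at -0.18. All 9 genes of the destruction complex and its regulators were tested and 0 were called, with 1 at an unadjusted p under 0.05. Their median log2 fold change was 0.11, and 8 of the 9 were above 0, beside 6010 of all 12612 tested genes. CSNK1A1, a kinase that primes beta-catenin, stood at 0.16. It was at 0.038 with the GC and length trend removed and at 0.026 with the ERCC factor. Whether these 9 genes depart from the trend with GC content and length was not tested. CTNNB1, which encodes beta-catenin, had 231.5 and 205.8 CPM with DMSO and 204.8 and 209.0 with dTAG (log2 fold change -0.079, 95% interval -0.27 to 0.11, edgeR adjusted p = 0.59). It was called lower with the ERCC factor (-0.21, adjusted p = 0.0069) and with the GC and length trend removed (-0.20, adjusted p = 0.0036), in 2 of 15 alternatives with adjusted p from 0.0036 to 0.98.

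In the nucleus, 11 of 12 genes of the beta-catenin complex were tested and 0 were called, with a median log2 fold change of -0.14. Of the 11, 3 had an unadjusted p under 0.05, beside 26.6% of all tested genes. TCF7L2, the TCF gene with the highest level in these cells, had 3311 and 3226 CPM with DMSO and 2707 and 2917 with dTAG (log2 fold change -0.22, edgeR adjusted p = 0.28). It was called lower in 3 of 16 alternatives, with the ERCC factor (-0.28, adjusted p = 0.0052), with the GC and length trend removed (-0.25, adjusted p = 0.0028) and with the length trend removed (-0.31, adjusted p = 0.0170), and not in the others, with adjusted p up to 0.96. At 15.0 CPM per kb with DMSO it stood above TCF7 at 0.996 and LEF1 at 0.00029. Among the secreted inhibitors 2 of 10 were tested and 0 were called, with 0 at an unadjusted p under 0.05. DKK1, an LRP antagonist with 2 motif matches in its promoter, had 101.0 and 102.1 CPM with DMSO and 116.7 and 98.4 with dTAG (log2 fold change 0.083, edgeR adjusted p = 0.57).

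Of 12 further target genes 8 were tested, with 2 called lower and 1 higher, beside 3.66% and 3.44% of all tested genes. BAMBI, a pseudoreceptor of the TGF-beta family, fell from 58.2 and 60.6 CPM to 46.1 and 44.6 CPM, a log2 fold change of -0.39 ± 0.087 (SE; edgeR adjusted p = 0.0107). EPHB3, an ephrin receptor of the crypt base, fell from 5.91 and 7.93 CPM to 4.98 and 3.09 CPM, a log2 fold change of -0.77 ± 0.20 (SE; edgeR adjusted p = 0.0264). SOX9, a transcription factor of crypt cells, rose from 28.1 and 27.2 CPM to 36.5 and 34.4 CPM, a log2 fold change of 0.36 ± 0.098 (SE; edgeR adjusted p = 0.0310). The groups did not overlap in any of the 3, but these genes were named for their calls, so this adds no separate support. Over all tested genes, 30.7% had both dTAG libraries lower and 28.1% had both higher. MYC, at 153.7 CPM per kb the highest of the pathway genes, had 860.4 and 985.0 CPM with DMSO and 955.5 and 872.7 with dTAG (log2 fold change -0.013, 95% interval -0.24 to 0.22, edgeR adjusted p = 0.94). With the GC and length trend removed it was called higher (0.18, adjusted p = 0.0069), the only such call in 16 alternatives, over which its adjusted p reached 0.995.

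Without dTAG replicate 1 or dTAG replicate 2 the calls of BAMBI (log2 fold change -0.41 and -0.37) and SOX9 (0.32 and 0.40) were lost while the fold changes stayed near the full values. The call of BAMBI was also lost with the length trend removed (-0.20, adjusted p = 0.12), and that of EPHB3 without dTAG replicate 2 (log2 fold change -0.47, adjusted p = 0.88) and with the ERCC factor (-0.26, adjusted p = 0.51). That of SOX9 was also lost with upper-quartile factors (0.29, adjusted p = 0.0739). Over the alternatives, adjusted p ran from 2.3e-06 to 0.69 for BAMBI, from 1.6e-07 to 0.88 for EPHB3 and from 2.4e-04 to 0.62 for SOX9.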

How the data were processed

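TT-Seq libraries of HCT116 KAP1_dTAG_CloneD5 cells were analyzed, 2 given DMSO and 2 given dTAG (dTAG-13 at 500 nM in the methods). The methods call the replicates biological. Reads were trimmed with Trim Galore 0.6.4, aligned to hg38 with STAR 2.7.3a and counted with featureCounts (Subread 1.6.3). The deposited values are raw counts per gene, without normalization by the authors, for 19901 genes and 92 ERCC RNAs. Handling of strand and of reads in overlapping genes is not given in the sources used here. File starts are 0-based (60.9% of 11129 genes start exactly 1 base before GENCODE 44) and were raised by 1.

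Counts of genes that reached 50 in each of the 4 libraries were scaled by TMM and fitted with edgeR 4.0.16 (limma 3.58.1, R 4.3.3), without a replicate block. P-values are two-sided, from the quasi-likelihood F test, with Benjamini-Hochberg adjustment over 12612 genes. SE is the size of the log2 fold change over the square root of F. CPM use TMM-scaled library sizes. The authors used spike-in normalization with RUVSeq 1.32.0 and EDASeq 2.32.0, whose settings are not given in the sources used here, so ERCC scaling was an alternative. Scripts were tested on simulated data. The other alternatives were DESeq2 1.42.0, upper-quartile factors, a likelihood ratio test, other count minimums and GC and length trends removed by lowess. Genes without overlaps and leaving out each library were further ones. A replicate block was fitted as well, with the numbers as given and crossed between groups. The crossed fit was chosen after seeing the data.

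The 10 members, the list of 88 pathway genes, the markers and the tests were chosen with earlier results of these data known. Of the pathway list, genes were named if called, or if highest per kilobase in DMSO within their role, with CTNNB1 and TRIM28 added. No genes were named for a pattern like that of the members, since 4 libraries do not define one. Gene counts of 93105627 to 102314741 per library leave the 2 replicates as the limit of precision, and counting error as the limit for genes under 50 counts.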

Additional observations from a re-analysis of the deposited data

How the results depend on the processing

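The member calls (1 of 6 tested), the pathway calls (5 of 63) and the calls over all genes (895 of 12612) kept within 1.5 times with DESeq2 (1, 7 and 1252) and a minimum of 10 counts (1, 5 and 839). They were 2, 9 and 1124 with upper-quartile factors, 2, 13 and 1331 with the ERCC factor, 2, 13 and 1593 with the likelihood ratio test, 1, 11 and 1417 without a filter, 2, 21 and 2281 with the GC and length trend removed, 2, 10 and 1053 with the length trend removed, and 0, 6 and 645 among genes that overlap no other, a fit that leaves out AXIN2, RNF43 and TCF7 (3 members tested, 1 at an unadjusted p under 0.05). With ERCC totals as library sizes edgeR called 0, 0 and 0 (0, 2 and 229 at an unadjusted p under 0.05), and the median of all genes was 0.63. Leaving out 1 library gave 0 to 3, 0 to 29 and 69 to 5491 calls, with 5491 without DMSO replicate 1, 1499 without DMSO replicate 2, 138 without dTAG replicate 1 and 69 without dTAG replicate 2. These fits have 1 residual degree of freedom and assume that the lone library varies like the other group. The fits with the ERCC factor and with a replicate block also have 1 residual degree of freedom. The cause of these shifts was not tested.

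TRIM28 (log2 fold change -0.37) turned to 0.28 with ERCC totals and lost its call with the ERCC factor (-0.19), with the GC and length trend removed (-0.10) and with the length trend removed (-0.20). Leaving out 1 library gave -0.46 to -0.28.

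With ERCC totals, log2 fold changes turned positive for AXIN2 (0.18), RNF43 (0.45), TCF7 (0.59), NOTUM (0.058), BAMBI (0.26), FZD1 (0.027), WNT16 (0.42), WLS (0.60), LGR4 (0.29), FZD2 (0.10), DVL2 (0.47), TCF7L2 (0.43), MYC (0.65) and CTNNB1 (0.55), most of them below that median. Upper-quartile factors reversed ZNRF3 (-0.0099) and NKD1 (-0.068). The ERCC factor reversed TCF7 (0.13) and MYC (0.18). The GC and length correction reversed TCF7 (0.082), DVL2 (0.025) and MYC (0.18, there called higher), and the length correction ZNRF3 (-0.026), NKD1 (-0.077) and MYC (0.17). Among genes without overlaps NKD1 was at -0.0051. Leaving out 1 library gave -0.094 to 0.10 for NKD1, -0.18 to 0.035 for TCF7, -0.042 to 0.20 for DKK1, -0.11 to 0.086 for MYC and -0.16 to 0.0079 for CTNNB1. Of 332 pairs of named gene and alternative, 33 reversed direction, whether or not the call changed too. Of the pairs that kept direction, 239 kept their side of the threshold, 39 gained a call and 21 lost it.

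DMSO 1 and dTAG 1 did not deviate together from their group means (correlation -0.244 over 12612 genes), so the numbers were not taken as pairs. With 2 libraries per group, the libraries numbered 2 mirror these deviations and add no further pair. Differently numbered libraries correlated by the same size with the opposite sign. With the replicate block, 1 member, 2 pathway genes and 340 of all genes were called, AXIN2 had a log2 fold change of -0.48, and TRIM28 (-0.37), BAMBI, FZD1 and SOX9 were no longer called. With crossed numbers, an alternative chosen after seeing the data, 3, 19 and 3190 genes were called.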
